A study of Mus musculus with 9 samples.

Results

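Monocyte chemokines and their receptors are described here in mouse skin with allergic contact dermatitis. The group holds 8 genes: Ccl2, Ccl7, Ccl12 and Ccl8, Ccl3 and Ccl4, and the receptor genes Ccr1 and Ccr2. They were chosen by symbol, each from a transcript cluster (the array's unit for a gene) with 1 gene symbol, and all 8 were measured among 30142 genes, each by a single cluster. Total RNA of whole neck skin from male C57BL/6 mice aged 6 to 8 weeks was hybridised to 9 Affymetrix arrays, with 3 biological replicates in each of 3 groups. Control skin was labelled healthy. In the oxazolone and urushiol groups the allergen, a synthetic hapten or the oil of poison ivy respectively, was painted on the shaved abdomen at 2.0%. From 5 days later it was painted on the shaved nape at 0.5% in 40 µl of acetone, 5 times up to day 8, and skin was taken 4 hours after the last challenge. The labels do not say whether control mice were shaved or given acetone, so handling and allergen cannot be told apart. Each value below is a log2 expression level on 1 array, ± after a difference is limma's standard error (n = 3 arrays per group), and ± after a group mean is the SD.

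CC chemokines are small secreted proteins that draw leukocytes along a gradient through G protein-coupled receptors. CCL2, CCL7 and CCL12 act on CCR2, the receptor by which inflammatory monocytes leave the bone marrow and enter tissue, and CCL7 also on CCR1 and CCR3. Mouse CCL8 is known as a ligand of CCR8. CCL3 acts on CCR1, which is carried by monocytes, macrophages and neutrophils. In inflamed skin these chemokines can come from keratinocytes, fibroblasts, endothelium and leukocytes.

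In the RefSeq gene order of the mouse assembly GRCm38.p6, Ccl2, Ccl7, Ccl11, Ccl12, Ccl8 and Ccl1 follow one another on chromosome 11. A second run on that chromosome holds Ccl5, Ccl9, Ccl6, Ccl3 and Ccl4. Ccr1, Ccr1l1, Ccr3 and Ccr2 are consecutive on chromosome 9. Of the 8 genes, 5 had an entry in the RefSeq promoter table (Ccl12, Ccl8, Ccl3, Ccr1 and Ccr2). The 250 bases before the start of Ccl12 (chr11:82101595-82101844, plus strand), Ccl8 (chr11:82114935-82115184, plus strand) and Ccl3 (chr11:83649379-83649628, minus strand) are shown because these 3 chemokine genes were higher after both allergens. Capitals mark the TATA box letters TATAAA.
Ccl12: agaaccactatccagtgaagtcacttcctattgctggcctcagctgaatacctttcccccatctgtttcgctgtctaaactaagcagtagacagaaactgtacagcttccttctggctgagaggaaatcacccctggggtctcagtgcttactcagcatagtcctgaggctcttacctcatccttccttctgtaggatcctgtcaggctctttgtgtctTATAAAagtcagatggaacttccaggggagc
Ccl8: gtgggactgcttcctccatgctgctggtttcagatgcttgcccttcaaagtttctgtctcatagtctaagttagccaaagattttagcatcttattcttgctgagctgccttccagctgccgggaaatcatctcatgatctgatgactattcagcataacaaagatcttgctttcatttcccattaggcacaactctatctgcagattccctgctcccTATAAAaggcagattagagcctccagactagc
Ccl3: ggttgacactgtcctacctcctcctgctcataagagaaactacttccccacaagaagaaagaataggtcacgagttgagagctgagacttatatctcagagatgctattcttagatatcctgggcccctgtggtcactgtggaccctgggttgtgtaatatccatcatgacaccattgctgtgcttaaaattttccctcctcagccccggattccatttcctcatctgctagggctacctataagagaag
TATAAA on the gene's strand began 31 bases before the start of Ccl12 and 32 before that of Ccl8, and 7.59% of 32851 promoter windows of the same length held it. Ccl12 and Ccl8 were identical at 62.0% of aligned bases, and the other pairs of the 5 windows at 48.9% to 57.3%. No match was found in the 5 windows, on either strand, for the AP-1 letters TGANTCA (6.75% of all windows), the GAS letters TTCNNNGAA (7.02%), the ISRE consensus (2.98%) or the NF-kB consensus (3.9%). The letters TTGNNNAA, a loose form of a C/EBP site, matched in Ccl8, Ccl3, Ccr1 and Ccr2, and in 33.3% of all windows.

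The 3 groups were compared to ask which of these genes each allergen moved and whether the allergens differed. Arrays were close within the challenged groups, with correlations across genes of 0.984 to 0.996 among the 6 (genes are not independent replicates). Control array 3 stood apart: its mean over 6 hair follicle genes was 12.54, against 6.08 and 6.24 on control arrays 1 and 2 and 11.69 to 14.44 on challenged arrays. Its skeletal muscle mean over 6 genes was 16.20, against 18.21 and 18.11 on the other controls, 7.30 to 9.54 after oxazolone and 11.62 to 12.66 after urushiol. All 6 muscle genes fell with each allergen, where 6.92% (oxazolone) and 6.43% (urushiol) of all genes were called lower. With 1 array left out, 5 to 6 fell with urushiol. The urushiol call of Myh4 (adjusted p = 0.024, limma) ended without control array 1 or 2 or any urushiol array (up to 0.0842). Keratinocyte markers, which check the labelled tissue, were high on all 9 arrays with means of 16.27 to 17.80. The part of the makeup of the skin pieces in the results below was not tested. In whole skin, a change in the number of cells of a type and a change in RNA per cell cannot be told apart.

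**Figure D1:**
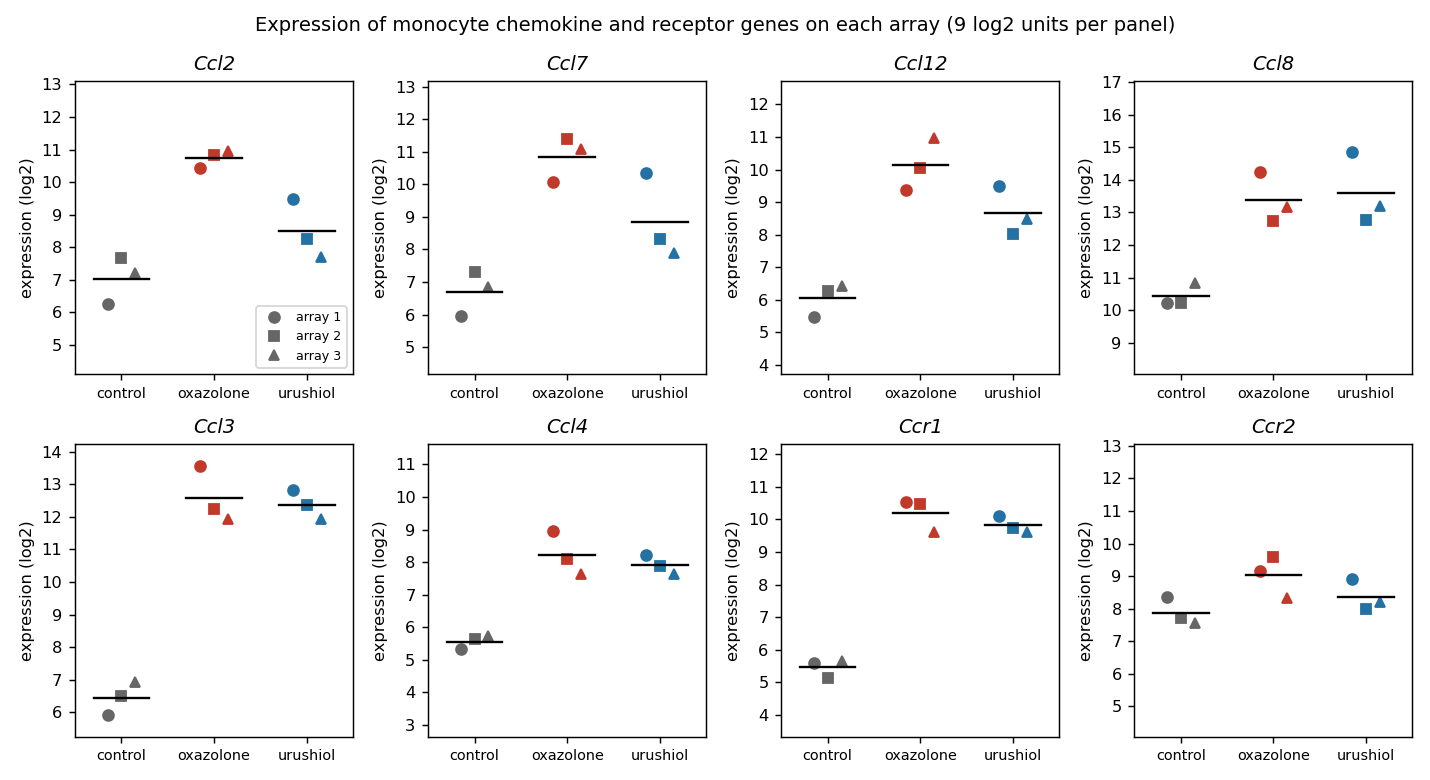
Log2 expression of the 8 genes on each of 9 arrays, by group, with horizontal lines at group means; each panel spans 9 log2 units and symbols give the array number. For all genes but Ccr2, the 3 arrays of each allergen lie above the 3 control arrays.

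After oxazolone, 7 of the 8 genes rose and Ccr2 did not pass the test. After urushiol, 5 rose (Ccl12, Ccl8, Ccl3, Ccl4 and Ccr1), while Ccl2, Ccl7 and Ccr2 did not pass. By limma with Benjamini-Hochberg adjustment over all genes, 9.63% of 30142 genes were called higher after oxazolone and 9.96% after urushiol. None of the 8 was called lower, where 6.92% and 6.43% of all genes were, and none had arrays wholly below control, where 11.5% and 11.8% did. The median difference over the 8 genes was 3.89 log2 units for oxazolone and 2.48 for urushiol, against 0.06 and 0.04 over all genes. The arrays of the allergen lay wholly above control for 7 of 8 genes in either comparison, as they did for 21.3% (oxazolone) and 21.1% (urushiol) of all genes. Both comparisons use the same 3 control arrays. Without control array 3 the counts were again 7 and 5, and without control array 1 or 2 they were 6 and 3.

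Ccl2, the main chemoattractant for CCR2-bearing monocytes, lay at 6.26, 7.66 and 7.20 on the control arrays. It read 10.44, 10.84 and 10.95 after oxazolone, and 9.49, 8.26 and 7.71 after urushiol. The oxazolone arrays were high and close together, and the urushiol arrays lay between the other groups without touching either, the lowest of them just above the highest control. Ccl2 rose by 3.70 ± 0.51 with oxazolone (adjusted p = 0.00573, limma). With urushiol the difference was 1.45 ± 0.51 and did not pass (adjusted p = 0.101, limma). Over the other settings, with treat at 0.5 left out, adjusted p ran from 0.0601 to 0.249.

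Ccl7, a chemokine for monocytes and eosinophils, had control values of 5.96, 7.30 and 6.86. Oxazolone arrays stood at 10.08, 11.38 and 11.09, and urushiol arrays at 10.35, 8.31 and 7.90. Urushiol array 1 was above oxazolone array 1, and the other urushiol arrays were nearer to control than to oxazolone. Its rise with oxazolone was 4.14 ± 0.70 (adjusted p = 0.0114, limma). For urushiol the difference was 2.15 ± 0.70 with an adjusted p = 0.0814 by limma, and it passed at 0.0473 only when dim genes were left out, among the settings tried.

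Ccl12, the mouse monocyte chemoattractant next to Ccl8, measured 5.46, 6.26 and 6.44 in control skin. The values were 9.37, 10.04 and 10.98 after oxazolone, and 9.49, 8.01 and 8.47 after urushiol. No challenged array reached down to control, and the challenged groups overlapped through urushiol array 1. Ccl12 rose by 4.08 ± 0.53 with oxazolone and by 2.60 ± 0.53 with urushiol (adjusted p = 0.0045 and 0.0196, limma). The urushiol call was lost without control array 1 (0.0667) or 2 (0.0578) and without urushiol array 1 (0.0607) or 3 (0.0563).

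Ccl8 averaged 13.38 with oxazolone and 13.60 with urushiol, whereas Ccl2, Ccl7 and Ccl12 of the same run averaged lower with urushiol. Whether these genes differ in this was not tested. Ccl8 was at 10.22, 10.23 and 10.83 in control skin and reached 14.23, 12.74 and 13.16 with oxazolone. With urushiol it reached 14.85, 12.76 and 13.19. Arrays with the same number were alike in both challenged groups, array 1 was the high one in each, and the challenged groups overlapped while both stood clear of control. Ccl8 rose by 2.95 ± 0.60 with oxazolone and by 3.17 ± 0.60 with urushiol (adjusted p = 0.0203 and 0.0155, limma). Leaving out control array 1 or 2 ended both calls (0.0701 and 0.0707 for oxazolone, 0.0567 and 0.0578 for urushiol). Leaving out oxazolone array 1 (0.0613) or 3 (0.0564) ended the first.

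Ccl3, which encodes a macrophage inflammatory protein that binds CCR1, showed the biggest difference of the 8 genes with either allergen. It was at 5.92, 6.49 and 6.94 on control arrays, near the array medians of 5.53 to 5.64 over all clusters. Levels of 13.57, 12.25 and 11.93 followed oxazolone, and 12.82, 12.36 and 11.93 followed urushiol. The lowest challenged arrays, number 3 of each group, had the same value and were far above control. The rise was 6.13 ± 0.48 with oxazolone and 5.92 ± 0.48 with urushiol (adjusted p = 0.000929 and 0.000919, limma).

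Ccl4, the neighbour of Ccl3 and the gene of a related macrophage inflammatory protein, also rose with both allergens. Its control values were 5.33, 5.63 and 5.72, around the array medians, so control skin was dim for this gene. It read 8.94, 8.11 and 7.63 after oxazolone, and 8.21, 7.89 and 7.62 after urushiol. In both challenged groups array 1 was highest and array 3 lowest, as for Ccl3. Ccl4 rose by 2.67 ± 0.33 and 2.35 ± 0.33 (adjusted p = 0.00378 and 0.00554, limma).

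The receptor gene Ccr1 was also dim in control skin, at 5.60, 5.12 and 5.65. It stood at 10.53, 10.48 and 9.61 after oxazolone and at 10.12, 9.73 and 9.61 after urushiol. All 6 challenged arrays formed a narrow band clear of the controls. The rises were 4.75 ± 0.28 and 4.36 ± 0.28 (adjusted p = 0.000432 and 0.000515, limma). Among settings that kept the threshold of 0.05, the calls of Ccl3, Ccl4 and Ccr1 in both comparisons and of Ccl2, Ccl7 and Ccl12 for oxazolone were made in each one, with adjusted p up to 0.0451 (Ccl7).

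Ccr2, the receptor of Ccl2, Ccl7 and Ccl12, stood at 8.35, 7.70 and 7.55 in control skin. Oxazolone arrays had 9.16, 9.58 and 8.33, and urushiol arrays 8.91, 8.00 and 8.21. Oxazolone array 3 lay just under control array 1, and all 3 groups overlapped. Its difference was 1.16 ± 0.39 with oxazolone (95% interval 0.24 to 2.07, adjusted p = 0.084) and 0.51 ± 0.39 with urushiol (-0.41 to 1.42, adjusted p = 0.429, limma). These intervals do not show that Ccr2 was unaltered, and Ccr2 passed in none of the settings tried. The probe sequences were not analysed here, so cross-hybridisation between close relatives such as Ccl2, Ccl7 and Ccl12 was not tested.

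**Figure D2:**
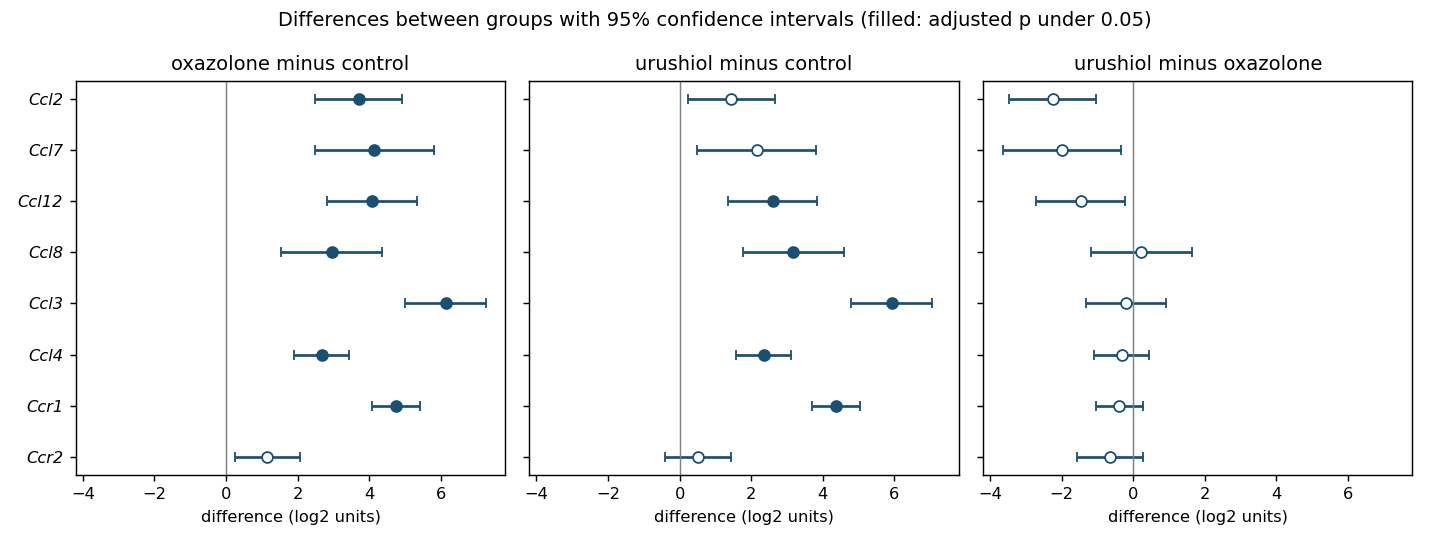
Differences between groups in log2 units for the 8 genes, with limma's 95% confidence intervals (n = 3 arrays per group) and filled points at an adjusted p under 0.05. Oxazolone minus control has 7 filled points, urushiol minus control 5, and urushiol minus oxazolone none.

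Set directly against each other, the allergens gave no difference that passed the test for any of the 8 genes. In urushiol minus oxazolone by limma, 0.00664% of all genes were called higher and 0.00995% lower. An unadjusted p under 0.05 was found for 3 of the 8 and for 1772 of all genes. Those 3 were the CCR2 ligands. Ccl2 averaged 8.49 ± 0.91 (SD, n = 3) with urushiol and 10.74 ± 0.27 with oxazolone, a difference of -2.26 ± 0.51 with a 95% interval of -3.46 to -1.05. It was the only one of the 8 whose urushiol arrays all lay below the oxazolone arrays, as 4.39% of all genes did. None lay wholly above, where 5.35% of all genes did. Its unadjusted p of 0.00299 became an adjusted p = 0.373 by limma. Ccl7 averaged 8.85 ± 1.31 and 10.85 ± 0.68, differing by -2.00 ± 0.70 (interval -3.65 to -0.34, adjusted p = 0.723). Ccl12 averaged 8.66 ± 0.76 and 10.13 ± 0.81, differing by -1.47 ± 0.53 (interval -2.72 to -0.23, adjusted p = 0.746, limma).

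For the other genes the allergens were closer. Ccl8 differed by 0.22 ± 0.60, with an interval of -1.19 to 1.63 that leaves room for differences of over 1 log2 unit in either direction. The intervals were -1.33 to 0.91 for Ccl3, -1.09 to 0.45 for Ccl4, -1.05 to 0.28 for Ccr1 and -1.57 to 0.27 for Ccr2. The order of group means was control, urushiol, oxazolone for 7 genes and control, oxazolone, urushiol for Ccl8. In that order the step from urushiol to oxazolone passed for no gene, and the step from control to its neighbour passed for Ccl12, Ccl8, Ccl3, Ccl4 and Ccr1.

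Urushiol array 1 carried the highest urushiol value for 8 of 8 genes, where it was the highest of its group for 36.7% of all genes. Oxazolone array 1 was highest for 4 of the 8 (33.4% of all genes), namely Ccl8, Ccl3, Ccl4 and Ccr1. Oxazolone array 2 was highest for Ccl7 and Ccr2 (32.4% of all genes), and array 3 for Ccl2 and Ccl12 (20.1%). Without urushiol array 1 the differences from oxazolone were -2.76 for Ccl2, -2.75 for Ccl7 and -1.89 for Ccl12, and none was called.

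**Figure D3:**
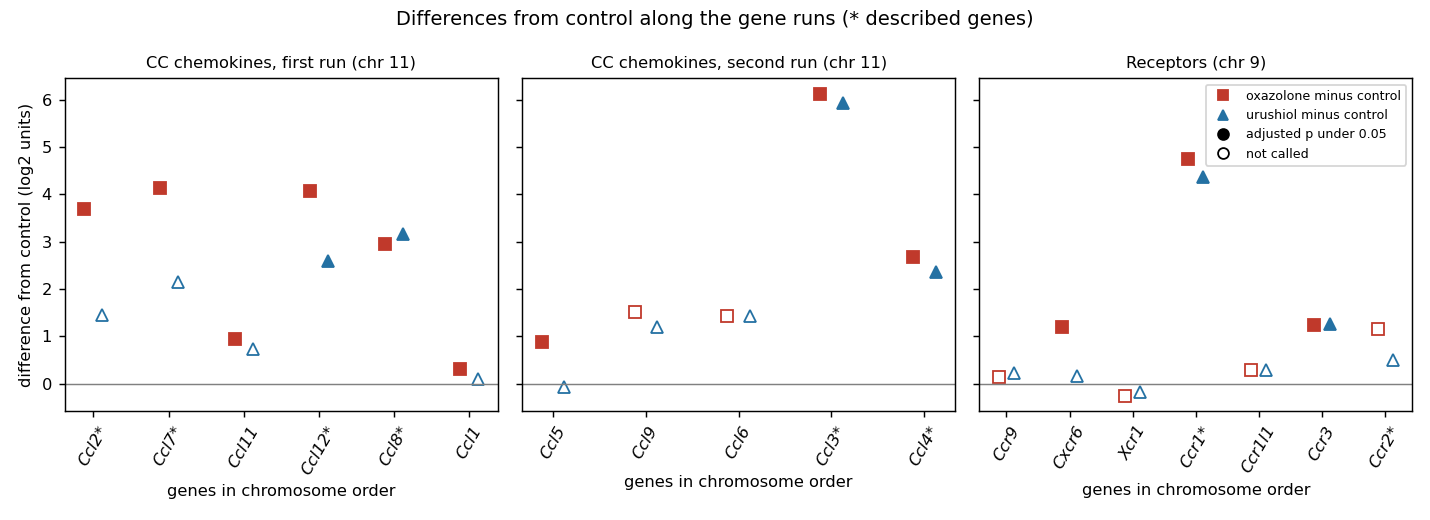
Difference from control in log2 units for each measured gene of the chromosome 11 chemokine runs and the chromosome 9 receptor run, in gene order, for oxazolone (squares) and urushiol (triangles), filled at an adjusted p under 0.05. Ccl11, between Ccl7 and Ccl12, differed by 0.94 (oxazolone) and 0.73 (urushiol), while its neighbours differed by over 2 log2 units.

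The neighbouring genes of these runs were measured as well. Ccl11, the eosinophil chemokine gene that lies between Ccl7 and Ccl12, rose by 0.94 ± 0.21 with oxazolone (adjusted p = 0.027) and stood at 0.73 ± 0.21 with urushiol (adjusted p = 0.0553, limma). Ccl1, at the end of that run, rose by 0.31 ± 0.06 with oxazolone, at levels of 4.68 to 5.12 that lay above the array median on 0 of 9 arrays. In the second run Ccl5, a T cell and monocyte chemokine that binds CCR1, rose by 0.89 ± 0.20 with oxazolone and stood at -0.06 ± 0.20 with urushiol. Ccl6 and Ccl9, ligands of CCR1, had differences of 1.20 to 1.52 and did not pass (adjusted p from 0.0952 to 0.174). On chromosome 9 the eosinophil receptor gene Ccr3 rose by 1.23 ± 0.29 and 1.27 ± 0.29 (adjusted p = 0.0309 and 0.0284, limma). Its neighbour Ccr2 stood at 1.16 ± 0.39 and 0.51 ± 0.39, and whether these genes differ in this was not tested. Cxcr6, a receptor gene of tissue T cells in the same run, rose by 1.20 with oxazolone (adjusted p = 0.0113) and stood at 0.17 with urushiol (0.638), a difference between allergens of -1.04 that did not pass (0.273).

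Over the other CC and CX3C chemokine genes, 4 of 14 rose and 1 fell with oxazolone, and none rose and 1 fell with urushiol (limma; 3 other members had differences of over 1 log2 unit with urushiol, Ccl6, Ccl9 and Ccl20, at adjusted p of 0.111, 0.174 and 0.0598). The 4 were Ccl11, Ccl5, Ccl1 and Cx3cl1, the fractalkine gene whose product binds CX3CR1. Cx3cl1 was at 5.97, 6.16 and 6.17 in control skin, 6.59, 6.89 and 6.94 after oxazolone, and 5.97, 6.04 and 6.12 after urushiol, and it rose by 0.71 ± 0.10 with oxazolone. Its difference between the allergens had an adjusted p = 0.107 by limma. The gene that fell was Ccl27a, a keratinocyte chemokine for skin-homing T cells, by 0.55 ± 0.09 and 0.71 ± 0.09 (adjusted p = 0.0103 and 0.00404). Leaving out control array 1 or 2 ended the oxazolone calls of Ccl1 (adjusted p up to 0.0579) and Ccl5 (up to 0.0803), and leaving out oxazolone array 1 or 3 or urushiol array 3 that of Ccl5. Leaving out control array 1, oxazolone array 2 or 3 or urushiol array 3 ended that of Ccl11 (up to 0.0758).

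Among 8 measured receptors of the same families, Ccr3 rose and Ccr4 fell with each allergen. Ccr3 lay at 4.07 to 4.94 in control skin, and above the array median on 4 of 9 arrays. Ccr8, the receptor gene for mouse CCL8, stood at 0.79 with oxazolone and 0.35 with urushiol (adjusted p = 0.066 and 0.382, limma). With 1 array left out, Ccr8 passed for oxazolone only without urushiol array 2 (0.0381). Its signal was above the array median on 2 of 9 arrays. Ccr7, the lymph node homing receptor of dendritic cells, stood at 0.79 with oxazolone (adjusted p = 0.0597) and passed without control array 3 or oxazolone array 2 (down to 0.0363), and the count of receptors that rose with oxazolone ran from 0 to 2 with 1 array left out. Ccr4, the receptor of skin-homing T cells for CCL17 and CCL22, fell from 8.20 to 8.51 in control skin to 5.28 to 6.09 after oxazolone and 4.53 to 4.94 after urushiol (-2.66 ± 0.21 and -3.61 ± 0.21). Cx3cr1, a receptor of patrolling monocytes and resident macrophages, lay between 6.02 and 6.65 on all arrays and did not pass (0.23 ± 0.11 and 0.29 ± 0.11). Each Ccr3 call ended when control array 1, or array 1 or 3 of that allergen, was left out, and the oxazolone call also without urushiol array 3, at adjusted p up to 0.0944.

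Atypical receptors bind chemokines without the usual G protein signal and lower or carry them. Of the 3 measured, Ackr1, which carries chemokines across venules, fell by 1.72 ± 0.35 and 1.78 ± 0.35 (adjusted p = 0.0207 and 0.0179). Ackr4, a scavenger of CCL19, CCL21 and CCL25, fell by 1.07 ± 0.19 and 1.05 ± 0.19 (adjusted p = 0.0126 and 0.0127, limma). Ccrl2 stood at 1.47 with oxazolone and 0.23 with urushiol and did not pass. Control array 3, at 8.36, was the lowest control for Ackr1 (9.59 and 9.47 on the others). Both Ackr1 calls ended without control array 1 or 2, the oxazolone one also without any of the 3 oxazolone arrays, and the urushiol one without urushiol array 1 or 2, at adjusted p up to 0.0732. The urushiol call of Ackr4 ended without urushiol array 1 (0.0511). Ackr2 and Ackr3 had clusters with several symbols and were not used here.

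Known inducers of these chemokines and related signalling genes were measured as a list of 12 genes. Of the 12, 8 rose with oxazolone, and 3 rose and 1 fell with urushiol. With 1 array left out, 6 to 9 rose with oxazolone, and 2 to 4 rose and 0 to 1 fell with urushiol. The list held Nfkbia, an NF-kB inhibitor gene, and Nfkbiz, with differences of 0.84 to 1.15 that did not pass with either allergen. Tnf, called with oxazolone (1.66 ± 0.42, adjusted p = 0.0387, limma), lost its call without each of 6 arrays. Csf2 rose by 0.50 ± 0.05 with oxazolone, at levels above the array median on 0 of 9 arrays. Il1b, a cytokine that induces Ccl2 and Ccl3 in many cells, rose by 8.11 ± 0.39 and 7.77 ± 0.39. Il1a rose by 3.73 ± 0.54 and 4.24 ± 0.54, and Il6 by 4.40 ± 0.55 and 2.93 ± 0.55. Irf1, a transcription factor induced by interferon gamma, stood at 10.34 to 12.22 after oxazolone and at 6.85 to 7.37 after urushiol, with 7.11 to 7.38 in control skin. Irf1 rose by 3.87 ± 0.44 and Ifng by 2.75 ± 0.31 with oxazolone, against -0.23 ± 0.44 and 0.04 ± 0.31 with urushiol. Ifng lay at 4.46 to 4.8 in control skin and at 4.38 to 4.84 after urushiol, below the array medians of 5.53 to 5.64. At such dim levels a change of Ifng with urushiol may be understated. The differences between allergens, -4.10 for Irf1 and -2.71 for Ifng, each had an adjusted p = 0.0767 (limma), which ran from 0.012 to 0.376 with 1 array left out and passed without oxazolone array 2 or 3. Csf1, the macrophage growth factor gene, fell by 0.73 ± 0.13 with urushiol. The urushiol calls of Il6 and Csf1 were lost without urushiol array 1, and that of Il6 also without control array 1 or 2, at adjusted p up to 0.0569.

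Of 12 measured monocyte markers, 5 rose with oxazolone and 4 with urushiol, and none fell. Others ran lower with oxazolone without passing: Csf1r, the macrophage growth factor receptor gene, by value at -0.95 (adjusted p = 0.0892), Nr4a1 at -0.88 (0.623) and F13a1 at -0.72 (0.241). Csf1r passed as lower without control array 3 or oxazolone array 1 (down to 0.0366). The Nr4a1 controls were 10.13, 13.07 and 8.01, on both sides of the oxazolone values of 9.39 to 9.66. Ms4a4c, a gene of classical monocytes, read 7.75 to 8.45 in control skin, 11.21 to 12.00 after oxazolone and 9.65 to 10.17 after urushiol, with rises of 3.57 ± 0.27 and 1.76 ± 0.27. Fcgr1, which encodes the high-affinity Fc receptor CD64, rose by 2.18 ± 0.14 and 1.06 ± 0.14. Cd14, the endotoxin co-receptor gene, rose by 2.84 ± 0.51 and 2.96 ± 0.51, and Plac8 by 1.73 ± 0.27 with oxazolone. Treml4 rose by 1.59 ± 0.31 with urushiol and 1.34 ± 0.31 with oxazolone, and lost both calls without control array 1 or 2, the first also without urushiol array 1 and the second without urushiol array 3. Ly6c2, a surface marker of inflammatory monocytes, lay between 14.58 and 16.12 on all arrays and did not pass. Its control mean of 15.43 was the highest of the list, with F13a1 next at 11.77. Which cells gave this signal, and whether the cluster also read close relatives of Ly6c2, was not tested. The list mean ran from 7.92 to 8.56 in control skin, 8.88 to 9.49 after oxazolone and 8.79 to 9.09 after urushiol.

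**Figure D4:**
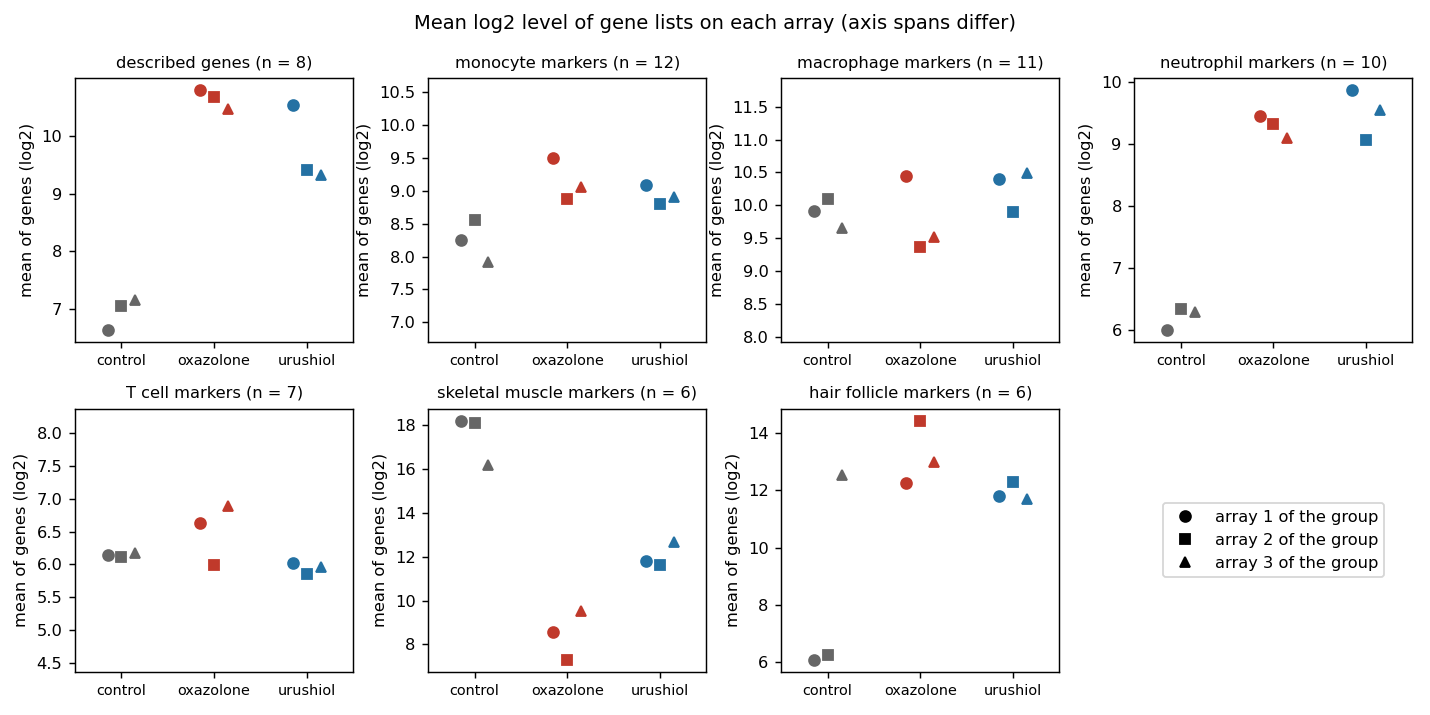
Mean log2 level of the 8 described genes and of 6 marker lists on each array, by group, with the number of measured genes in each panel title; axis spans differ. Neutrophil means of the challenged arrays (9.06 to 9.86) lie above control (6.00 to 6.34), while macrophage means of the 3 groups overlap. The neutrophil mean leans on S100a8 and S100a9, the biggest rises of that list.

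Markers of other cell types were measured beside the chemokines. With each allergen 7 of 10 neutrophil markers rose (5 to 7 with 1 array left out), the list mean going from 6.00 to 6.34 in control skin to 9.10 to 9.44 after oxazolone and 9.06 to 9.86 after urushiol. S100a8 rose by 8.81 and 10.58 log2 units and S100a9 by 8.23 and 9.98, the biggest rises of the list. The list mean leans on both genes, and which cells of the skin carried them was not tested. Cxcr2, a neutrophil chemokine receptor gene, rose by 2.51 and 2.83. Ly6g, Camp and Ngp did not pass with either allergen, at differences of 0.09 to 0.27 log2 units. Ngp lay above the array median on 0 of 9 arrays. Of 11 macrophage markers none was called with oxazolone and 1 rose with urushiol, Mrc1 (1.13 ± 0.27, adjusted p = 0.034, limma), a call lost without each of 7 arrays, all but oxazolone arrays 1 and 3. The macrophage mean overlapped between groups, at 9.66 to 10.09, 9.36 to 10.45 and 9.89 to 10.50. T cell markers averaged 6.12 to 6.18, 6.00 to 6.88 and 5.85 to 6.02 in the same order, with 2 of 7 rising and 1 falling with oxazolone and 2 rising and 2 falling with urushiol. Some T cell calls rested on single arrays: with 1 array left out, 1 to 4 rose and 0 to 1 fell with oxazolone, and 1 to 2 fell with urushiol. Cd8a, with oxazolone, lost its call without each of 8 arrays and Cd3g, with urushiol, without each of 7.

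Structural and mast cell markers gave counts of which several moved with single arrays. Of 4 fibroblast markers 3 fell with each allergen, but 0 to 3 did with 1 array left out, and without control array 3 the counts were 2 (oxazolone) and 1 (urushiol). Of 6 mast cell markers 2 rose and 1 fell with each allergen, and with 1 array left out 0 to 2 rose with oxazolone and 1 to 2 with urushiol. Krt14 and Krt1, keratins of basal and differentiating keratinocytes, rose among 6 keratinocyte markers, and without control array 3 the counts became 3 with oxazolone and 5 with urushiol. Of 5 endothelial markers, Tek, the angiopoietin receptor gene, was called lower with oxazolone (-1.68, adjusted p = 0.0472), a call lost without each of 7 arrays. With urushiol Tek stood at -0.95 (0.203) and was called lower without control array 3 (0.0408). Among 6 hair follicle markers Krt84 rose with each allergen, and without control array 3 the counts were 6 and 5, while the oxazolone call of Krt84 was lost without each of 7 arrays. The part of monocytes, neutrophils or other cells in the chemokine levels was not tested.

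By likeness of pattern over the 9 arrays, measured as Pearson's r among 5853 genes with a range of at least 1 log2 unit, the closest genes outside the set (predicted genes left out) were named for 5 of the 8. The arrays fall into groups that set much of each r, so these are descriptions. Ccl2 was most like Cd274 and Ms4a4c (each 0.95) and Olr1 (0.948). Ccl3 was most like Cxcl2 (0.997), a neutrophil chemokine gene, Il1b (0.996) and Csta2 (0.995). Ccr1 was most like Acod1, Srgn and Lilr4b (each 0.997). Ccl8 was most like Prl2c5 (0.992), Prl2c2 (0.991) and Ostc (0.987). Ccr2 had Olfr113 at 0.968, then Rnd1 at 0.873 and Eif3s6-ps2 at 0.85. Within the set, Ccl2 and Ccl7 had an r of 0.981 and Ccl3 and Ccl4 of 0.989. Ccl8 had 0.712 with Ccl2, 0.767 with Ccl7 and 0.828 with Ccl12, genes of the same run.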

How the data were processed

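The deposited values are log2 expression levels, 1 per transcript cluster and array, running from 2.2 to 19.93. Per the submitters' processing notes, Affymetrix Expression Console 1.4, RMA and the Transcriptome Analysis Console were used, with no role or order given. Values above 16, the log2 limit of a 16-bit scanner, are unexplained, so a difference of 1 need not be a doubling of RNA. No genome build is named.

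Of 72688 features, 6732 array controls were left out. The platform annotation gave 1 symbol to 30604 of 65956 clusters, several to 2146 and none to 33206. Symbols of 827 clusters were updated by gene ID from RefSeq. Each gene was its cluster with the highest mean, giving 30142 genes. The file has no detection calls and arrays carry no depth, so their number limits precision.

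Groups came from titles. All 9 arrays entered 1 limma 3.58.1 fit (R 4.3.3; lmFit, eBayes, two-sided), adjusted by Benjamini-Hochberg over all genes at a threshold of 0.05, checked on simulated data. The 8 genes and the gene lists were chosen with earlier results of these data known. All 8 were named, with up to 4 called genes per list of biggest difference and partner genes. Ccl6, Ccl9, Ccl20, Ccr7, Ccr8, Ccrl2, Cxcr6, Csf1r, Nr4a1, F13a1, Ifng, Tnf, Csf2, Nfkbia, Nfkbiz, Ly6g, Camp, Ngp and Ly6c2 were named after their values were seen. Exact permutation over 3 and 3 arrays has a smallest p of 0.1. Alternatives were a filter on dim genes (above the array median on 3 arrays), cluster means, quantile renormalisation, median centring, variance models, array weights, 2 groups alone, a replicate block, a threshold of 0.01, treat at 0.5 and each array left out. Same-numbered oxazolone and urushiol arrays deviated together (correlations of 0.124 to 0.201, over the limit of 0.1). This is the only basis of the pairing, since labels give none. Below the limit lay 4 of 6 same-numbered pairs with control and 13 of 18 pairs of different number. Pairs of different number ran up to 0.285, above the same-numbered pairs of the allergens, so the limit does not establish a pairing. Promoter sequences are from RefSeq (GRCm38.p6).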

Additional observations from a re-analysis of the deposited data

How the results depend on the processing

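The count of 7 genes higher after oxazolone ran from 5 to 7 over the alternatives. The count of 5 after urushiol was 3 at a threshold of 0.01, 3 with treat at 0.5, 6 with dim genes left out, and 3 to 5 with 1 array left out, lowest without control array 1 or 2. None of the 8 was called in urushiol minus oxazolone, or lower in any comparison, under any alternative. With the replicate block over 9 arrays the counts were 7, 5 and 0, and with the block over the 6 challenged arrays 0, with adjusted p for Ccl2 of 0.476 and 0.486 in urushiol minus oxazolone, so the pairing changed no call of the 8 genes. Of differences between allergens, Ccl8 turned to -0.10 with array weights, -0.095 without oxazolone array 2 and, with 1 array left out, ran from -0.40 without urushiol array 1 to 0.65 without oxazolone array 1. Ccl3 turned to 0.28 without oxazolone array 1 and 0.0067 without urushiol array 3, and ran down to -0.54. Ccl4 turned to 0.0367 without oxazolone array 1 and ran down to -0.62, and none of these was called. The cause was not tested. Over all genes, counts called higher and lower were 2904 and 2085 for oxazolone and 3003 and 1939 for urushiol. Quantile renormalisation made them 2098 and 2828, and 2124 and 2479, so the split by direction depends on scaling. They were 1102 and 1005 for oxazolone without control array 1, and 4749 and 3270 without control array 3; 1262 and 936 with 2 groups alone and 4557 and 3131 with array weights. Signal near or below the array median limits, among others, Ccl1 and Csf2 on all arrays and Ccl4, Ccr1, Ccr3, Il6 and Treml4 in control skin. It also limits Ifng in control and urushiol skin, and Ccl12 on control array 1. Differences of these genes may be understated.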
